A study of Mus musculus with 12 samples.

Results

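A set of 10 genes of the NF-kB pathway was followed in resident macrophages of the mouse peritoneal cavity. They were Il6, Tnf, Icam1, Nfkbia, Tnfaip3, Nfkbiz, Bcl3, Nfkb1, Nfkb2 and Relb, taken as the rows of the deposited count table whose Ensembl identifier carries one of these symbols. All 10 were found among the 57010 genes of the table, and all 10 were among the 15943 genes that passed the filter on low counts. The cells were large peritoneal macrophages, sorted from female mice by high F4/80 and low MHC class II staining. WT naive and Tim4KO naive cells came from mice without tumour cells, whose age is not given in the sources used here. WT ID8 and Tim4KO ID8 cells came from mice injected intraperitoneally at 8 weeks of age with ID8ZGO, a culture of the ID8 mouse ovarian tumour line that carries ZsGreen and OVA, and were taken 24 h after the challenge. Each of the 4 groups held 3 libraries, named here by group and label number. Sorting kept the ZsGreen-positive macrophages of the challenged mice and applied no such gate to naive cells, so challenge and uptake of tumour material cannot be told apart. Tim4KO mice lack Tim4, a scavenger receptor that binds phosphatidylserine on dying cells, and the stated question was how phagocytosis changes transcription with and without it. The labels do not say how the Tim4KO allele was made, whether mice were pooled, or whether the libraries of a group came from separate mice, so p-values measure only the spread between these libraries, which may be technical.

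NF-kB is a family of dimeric transcription factors that inhibitor proteins of the IkB family hold in the cytoplasm of a resting cell. Signals from Toll-like, TNF and IL-1 receptors activate a kinase complex that marks the inhibitor for destruction, and the freed dimers switch on inflammatory genes in macrophages. Among those genes are the pathway's own brakes and subunits, so that its targets report on activity and its regulators limit or prolong it. Il6 and Tnf encode secreted cytokines and Icam1 encodes an adhesion molecule for leukocytes. Nfkbia encodes the classical inhibitor IkB-alpha, Tnfaip3 a ubiquitin-editing enzyme that ends signalling, and Nfkbiz and Bcl3 atypical IkB proteins that act in the nucleus. Nfkb1, Nfkb2 and Relb encode subunits of the dimers.

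The kappaB decamer, the consensus DNA site of NF-kB, was searched on both strands of RefSeq promoters (build GRCm38.p6) spanning 250 bases before to 50 bases after a start site. It occurred in 2779 of 32851 promoters (8.46%). The promoter table held 7 of the 10 genes, and 5 of these had a match in at least 1 promoter: Bcl3, Il6, Nfkb2, Nfkbia and Tnfaip3. No match was found in the promoters of Icam1 and Tnf, which says only that these letters are not in this window. Nfkb1, Nfkbiz and Relb had no entry. The genes were picked as known NF-kB targets and regulators, so the matches describe them and test nothing. The sequences below are the 150 bases before the start site of a cytokine gene, an inhibitor gene, a subunit gene and a feedback enzyme gene, each with a match, shown 5′ to 3′ on the gene's strand with the matches in capitals. Positions count back from the start site to the first base of the match.
Il6 (chr5:30012964-30013113, plus strand): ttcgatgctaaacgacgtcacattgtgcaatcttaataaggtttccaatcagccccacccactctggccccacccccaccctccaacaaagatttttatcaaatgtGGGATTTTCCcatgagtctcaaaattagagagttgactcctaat
Nfkbia (chr12:55492648-55492797, minus strand): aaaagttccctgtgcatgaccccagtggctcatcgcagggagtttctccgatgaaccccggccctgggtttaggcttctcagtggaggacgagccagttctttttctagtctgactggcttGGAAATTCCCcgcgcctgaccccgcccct
Nfkb2 (chr19:46304587-46304736, plus strand): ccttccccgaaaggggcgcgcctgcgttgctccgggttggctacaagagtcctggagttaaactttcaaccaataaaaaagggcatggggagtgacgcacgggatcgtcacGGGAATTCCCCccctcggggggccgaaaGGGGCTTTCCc
Tnfaip3 (chr10:19015411-19015560, minus strand): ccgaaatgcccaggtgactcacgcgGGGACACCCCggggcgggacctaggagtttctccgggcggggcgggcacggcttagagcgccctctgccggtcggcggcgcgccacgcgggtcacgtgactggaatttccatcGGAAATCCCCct
The match lay 44 bases before the start site in Il6 and 29 bases before it in Nfkbia. Nfkb2 held a pair of overlapping matches, 39 and 38 bases before this start site, and a separate match 11 bases before it. Tnfaip3 held matches 125 and 12 bases before this start site. Of the 5 genes with a match, Il6 and Nfkbia were called after challenge in WT cells, and Bcl3, Nfkb2 and Tnfaip3 were not. Icam1 and Tnf, without a match, were both called, and so were 31.8% of all tested genes. No test compared these genes with each other, and Nfkb2 was also called once WT ID8 3 was left out.

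Total counts per library ran from 7358559 to 23170244. Levels are given in CPM, counts divided by the library's TMM-scaled total of tested genes. The floor was set at 3 counts, which equals 0.137 to 0.399 CPM depending on the library. Such floors cover counting error only, since no molecular identifiers were used. Timd4, the gene of Tim4, lay between 882 and 1489 CPM in the 6 WT libraries and between 1.38 and 7.71 CPM in the 6 Tim4KO libraries. The 11 markers of large peritoneal macrophages, among them Adgre1, Gata6 and Icam2, were detected in every library. Their sum ran from 59962 to 69737 CPM in naive and from 26495 to 33547 CPM in ID8 libraries. Lyz2, the largest part of it, had a WT mean that fell with challenge from 45845 to 12773 CPM. The WT means of Alox15, F5, Csf1r, Mertk and Selp also fell. Those of Adgre1 (from 3156.5 to 4747 CPM), Gata6, Icam2, Cd14 and Itgam rose. The 8 neutrophil markers summed to 6.57 to 9.27 CPM in naive and 9.95 to 28.4 CPM in ID8 libraries, mostly from S100a8, while the defining marker Ly6g had at most 4 counts in any library and 0 counts in 6. The 9 epithelial markers summed to 5.74 to 25.1 CPM in naive and 1.60 to 5.35 CPM in ID8 libraries. WT ID8 3 stood apart from the other challenged libraries. Its 17 cell cycle genes summed to 3134 CPM against 761 to 1139 CPM in the other 5, and its reads in 1946 olfactory and vomeronasal receptor genes, a measure of background, summed to 6.25 CPM against 41.9 to 362 CPM. The counts and medians of the 10 genes in the challenge, challenged genotype and interaction comparisons are also given without it.

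In naive cells the 10 genes differed widely in level, and genotype made no difference that could be detected. Per kilobase of exon, Nfkbia had the highest mean level in all 4 groups and overlapped with no other gene, at 175 ± 44.9 CPM per kb in WT naive (SD, n = 3). Bcl3, Nfkbiz, Nfkb1 and Nfkb2 came next in WT naive, between 11.3 and 7.25 CPM per kb, each overlapping with its neighbour in the order. Il6 at 1.45 ± 0.602 and Tnf at 0.583 ± 0.189 CPM per kb were the lowest (SD, n = 3 each), and Tnf overlapped with Il6. Between genotypes, 0 of the 10 genes passed the test in naive cells (edgeR adjusted p of 0.826 to 0.993), against 0.0439% of all tested genes. None had an unadjusted p under 0.05, against 999 of all 15943 tested genes, and DESeq2 also called 0. The groups overlapped for all 10 genes, while 14.2% of tested genes did not overlap. A miss at this size does not show that the genotypes had equal levels: for Il6 the difference was -0.61 on the log2 scale with an SE of 0.37.

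**Figure D1:**
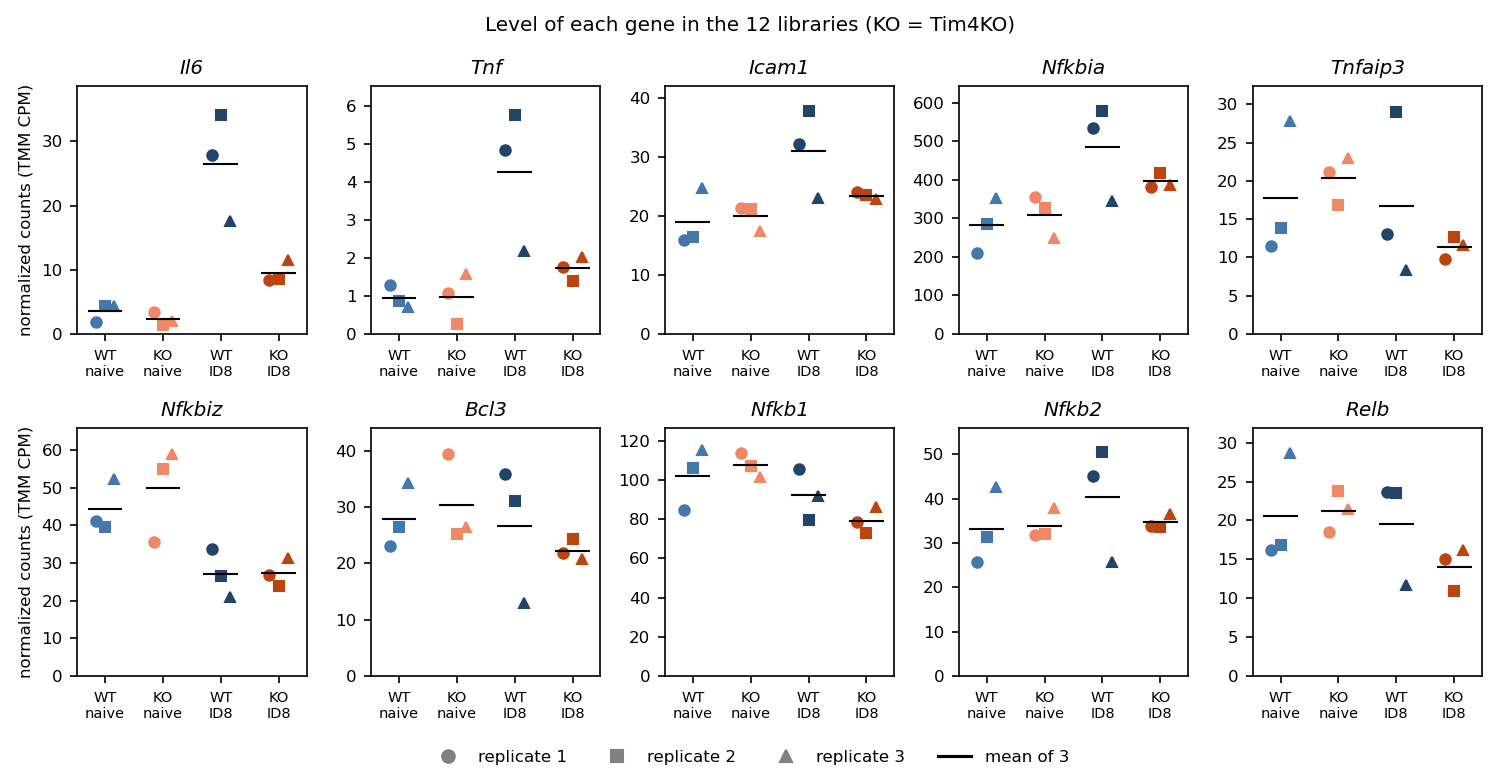
Level of each of the 10 genes in each library, in CPM after TMM scaling on a linear axis that starts at 0 and differs between panels. Marker shape gives the replicate number, the line is the mean of 3 libraries and KO stands for Tim4KO; Il6 lies between 17.6 and 34.1 CPM in WT ID8 and between 8.38 and 11.5 CPM in Tim4KO ID8, and the triangle of WT ID8 3 is the lowest WT ID8 point in 9 of 10 panels.

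Challenge raised the cytokine genes, the adhesion gene and the classical inhibitor in WT cells, lowered Nfkbiz, and left the subunit genes without a call. Of the 10 genes, 5 passed the test in WT (edgeR adjusted p under 0.05), against 31.8% of all 15943 tested genes. Of these, 4 rose, against 19.5% of tested genes that rose, and 1 fell, against 12.3% that fell. In Tim4KO cells 3 of the 10 passed, against 16.6% of tested genes: Il6 rose, against 11.5% of tested genes that rose, and Nfkbiz and Nfkb1 fell, against 5.06% that fell. The median log2 change of the 10 was 0.09 in WT and -0.21 in Tim4KO, beside -0.04 and -0.05 over all tested genes. Without WT ID8 3 these medians were 0.41 in WT and -0.19 in Tim4KO, beside -0.09 and -0.08. That library was the lowest of its group for 9 of the 10, so leaving it out had to raise most of the WT values. Other gene sums moved with challenge in these libraries. The 8 genes that respond to cell handling, such as Jun and Junb, summed to 378 to 484 CPM in naive and 441 to 592 CPM in ID8 libraries. These genes did not all rise. In WT naive and WT ID8 the means were 30.1 and 72.1 CPM for Jun, but 294 and 284 CPM for Junb, the largest part of the sum. The 17 cell cycle genes summed to 299 to 487 CPM in naive and 761 to 3134 CPM in ID8 libraries. They, too, did not all rise. In Tim4KO naive and Tim4KO ID8 the means were 60.9 and 241 CPM for Mcm6. For Mki67 they were 42.2 and 21.3 CPM, and for Top2a 45.4 and 33.1 CPM. The part of these gene sums in the changes of the 10 genes was not tested. In bulk libraries a change in the share of cells that use a gene and a change in RNA per cell cannot be told apart.

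Il6 showed the largest change of the 10 in both genotypes. It stood at 1.84, 4.34 and 4.40 CPM in WT naive 1, 2 and 3, from 17, 65 and 63 counts. In WT ID8 1, 2 and 3 it reached 27.9, 34.1 and 17.6 CPM, from 242, 397 and 385 counts. Every challenged WT library lay above every naive one, and WT ID8 3 was the lowest of the challenged ones. In Tim4KO naive it stood at 3.44, 1.46 and 2.03 CPM and in Tim4KO ID8 at 8.38, 8.58 and 11.5 CPM, again without overlap. The rise was 2.87 on the log2 scale in WT (SE 0.35, edgeR adjusted p = 6.32e-05), or 7.32-fold. In Tim4KO the rise was 2.01 (SE 0.36, edgeR adjusted p = 0.0020), or 4.03-fold. In the order of levels per kilobase Il6 moved from ninth in both naive groups to the second place in WT ID8, at 10.9 ± 3.44 CPM per kb, where it overlapped with Bcl3 (SD, n = 3). In Tim4KO ID8 it held the seventh place, at 3.90 ± 0.712 CPM per kb (SD, n = 3).

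Tnf had the lowest level per kilobase of the 10 in every group except WT ID8, where only Tnfaip3 was lower, and it rested on 2 to 67 counts in a library. In WT naive 1, 2 and 3 it stood at 1.30, 0.868 and 0.699 CPM, and in WT ID8 at 4.83, 5.76 and 2.19 CPM. All challenged WT libraries lay above all naive ones, with WT ID8 3 again the lowest. The rise in WT was 2.16 on the log2 scale (SE 0.51, edgeR adjusted p = 0.00556), or 4.46-fold. In Tim4KO naive it stood at 1.07, 0.266 and 1.58 CPM, the second of which came from 2 counts and lies under the floor, and in Tim4KO ID8 at 1.77, 1.38 and 2.02 CPM. These groups overlapped, and the change of 0.74 did not pass the test (SE 0.51, edgeR adjusted p = 0.365).

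Icam1 stood at 15.9, 16.4 and 24.8 CPM in WT naive and at 32.3, 37.9 and 23.04 CPM in WT ID8. WT ID8 3 fell below WT naive 3, so the groups overlapped, but the gene passed the test with a log2 change of 0.70 (SE 0.20, edgeR adjusted p = 0.0152). That call was lost when WT naive 1, WT naive 2 or WT ID8 2 was left out (edgeR adjusted p of 0.0655, 0.0539 and 0.0654). It was also lost with upper-quartile scaling (0.45, edgeR adjusted p = 0.0765) and with only the 2 groups in the fit (0.60, edgeR adjusted p = 0.0903). In Tim4KO cells Icam1 went from 21.4, 21.3 and 17.5 CPM to 24.1, 23.5 and 22.9 CPM. The challenged libraries were all higher, by 0.23 on the log2 scale, and the gene did not pass (SE 0.20, edgeR adjusted p = 0.470). Exons of Icam1, Nfkb2 and Bcl3 overlap with genes on the opposite strand by 511, up to 531 and 161 bp in GENCODE vM21, and reads shared with those genes could not be told apart because the handling of strand is not given in the sources used here.

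Among the IkB genes and the feedback enzyme gene, Nfkbia rose in WT, Nfkbiz fell in both genotypes, and Bcl3 and Tnfaip3 did not pass in either. Nfkbia stood at 209, 285 and 353 CPM in WT naive and at 534, 577 and 345 CPM in WT ID8. WT ID8 1 and 2 lay above all naive libraries, and WT ID8 3 lay within their range. The rise was 0.78 on the log2 scale (SE 0.21, edgeR adjusted p = 0.0122), or 1.72-fold, and was not called without WT naive 1 (0.61, edgeR adjusted p = 0.0531) or with only the 2 groups in the fit (0.68, edgeR adjusted p = 0.0619). In Tim4KO it went from 355, 326 and 249 CPM to 381, 418 and 388 CPM, without overlap. That change of 0.35 did not pass the test (SE 0.21, edgeR adjusted p = 0.281).

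Nfkbiz, whose product helps NF-kB to switch on a set of secondary genes that includes Il6, moved the other way. It stood at 41.1, 39.6 and 52.4 CPM in WT naive and at 33.7, 26.6 and 21.0 CPM in WT ID8. In Tim4KO it went from 35.4, 54.9 and 59.0 CPM to 26.8, 23.9 and 31.2 CPM. All challenged libraries lay below all naive ones of their genotype. The fall was -0.72 on the log2 scale in WT (SE 0.21, edgeR adjusted p = 0.0168), or 1.65-fold lower, and -0.86 in Tim4KO (SE 0.21, edgeR adjusted p = 0.0109), or 1.82-fold lower. With the background measure as a covariate the WT change was -0.47 and no longer called (edgeR adjusted p = 0.193). In the same libraries that measure ranged from 324 to 836 CPM in WT naive and from 6.25 to 254 CPM in WT ID8. It moved with challenge, so that fit cannot tell the measure and challenge apart, and its part in the change was not tested. Leaving out WT naive 3 or WT ID8 2 also ended the WT call (edgeR adjusted p = 0.0865 and 0.0574), and leaving out Tim4KO naive 2, Tim4KO naive 3 or Tim4KO ID8 2 ended the Tim4KO call (edgeR adjusted p of 0.0542 to 0.0560).

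Tnfaip3 varied most between libraries of WT mice. It stood at 11.5, 13.8 and 27.8 CPM in WT naive and at 13.0, 29.0 and 8.31 CPM in WT ID8. The highest and the lowest challenged WT library differed 3.49-fold, against 1.29-fold in Tim4KO ID8, where it stood at 9.76, 12.6 and 11.6 CPM. The Tim4KO ID8 libraries all lay below the Tim4KO naive ones, at 21.2, 16.9 and 22.9 CPM. The log2 change was -0.09 in WT (SE 0.43, edgeR adjusted p = 0.875) and -0.85 in Tim4KO (SE 0.43, edgeR adjusted p = 0.216). Bcl3 stood at 23.1, 26.4 and 34.2 CPM in WT naive and at 35.9, 31.0 and 13.0 CPM in WT ID8, with WT ID8 3 below every other library of the study. In Tim4KO Bcl3 went from 39.4, 25.2 and 26.5 CPM to 21.8, 24.3 and 20.7 CPM, without overlap. Its log2 change was -0.09 in WT (SE 0.31, edgeR adjusted p = 0.844) and -0.45 in Tim4KO (SE 0.31, edgeR adjusted p = 0.368).

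Of the 3 subunit genes only Nfkb1 in Tim4KO passed the test, and it fell. Nfkb1 stood at 114, 107 and 102 CPM in Tim4KO naive and at 78.3, 73.2 and 86.0 CPM in Tim4KO ID8, without overlap. The fall was -0.44 on the log2 scale (SE 0.14, edgeR adjusted p = 0.0431), or 1.36-fold lower. It was called in 3 of the 12 fits that left out a library, and its adjusted p reached 0.234 in the others. In WT, Nfkb1 went from 84.8, 106 and 115 CPM to 105, 79.7 and 91.8 CPM, with overlap and a log2 change of -0.15 (SE 0.14, edgeR adjusted p = 0.421). Upper-quartile scaling made this change -0.38 and a call (edgeR adjusted p = 0.0471).

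Nfkb2 stood at 25.7, 31.4 and 42.6 CPM in WT naive and at 45.1, 50.5 and 25.7 CPM in WT ID8. The groups overlapped only through WT ID8 3, and the log2 change of 0.27 did not pass the test (SE 0.22, edgeR adjusted p = 0.346). Without WT ID8 3 it rose by 0.54 (SE 0.17, edgeR adjusted p = 0.0186). In Tim4KO, Nfkb2 went from 31.7, 32.1 and 37.8 CPM to 33.8, 33.6 and 36.6 CPM, a change of 0.03 (SE 0.22, edgeR adjusted p = 0.940). Relb, the partner of the processed Nfkb2 product in the noncanonical pathway, stood at 16.2, 16.9 and 28.6 CPM in WT naive and at 23.6, 23.5 and 11.7 CPM in WT ID8. It went from 18.5, 23.8 and 21.5 CPM in Tim4KO naive to 14.99, 10.98 and 16.3 CPM in Tim4KO ID8, without overlap. Its log2 change was -0.09 in WT (SE 0.28, edgeR adjusted p = 0.820) and -0.59 in Tim4KO (SE 0.28, edgeR adjusted p = 0.172).

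**Figure D2:**
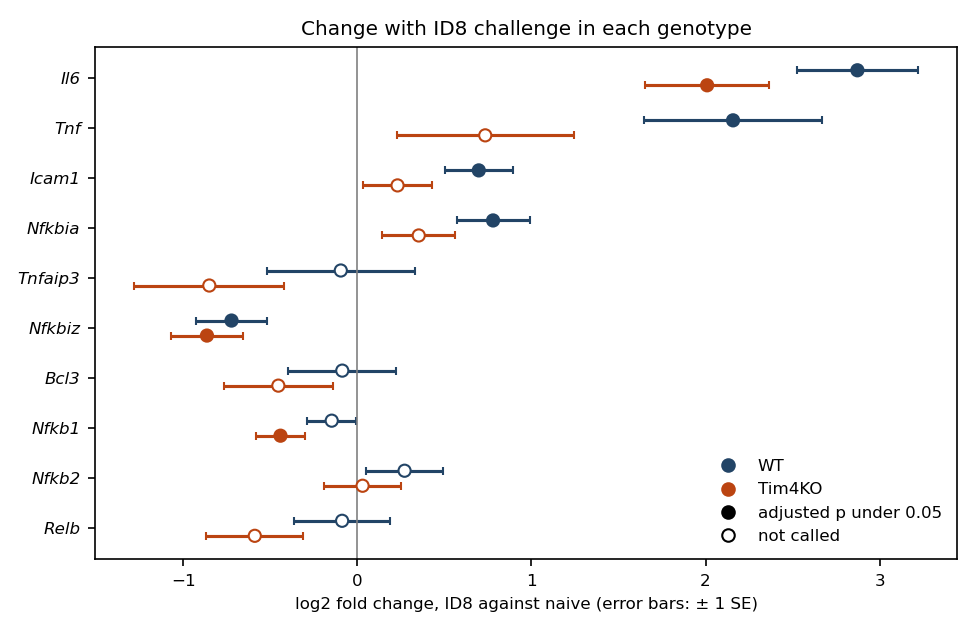
Log2 fold change with ID8 challenge for each of the 10 genes, in WT (dark blue) and in Tim4KO (orange), with bars of 1 SE from edgeR; filled points have an adjusted p under 0.05. Il6 lies farthest to the right in both genotypes (2.87 and 2.01) and Nfkbiz is filled on the left in both (-0.72 and -0.86).

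Counted by overlap alone, the challenged and naive libraries were apart for 3 of the 10 genes in WT (Il6, Tnf and Nfkbiz), against 44.4% of tested genes. In Tim4KO they were apart for 8 of the 10, all but Tnf and Nfkb2, against 41.9% of tested genes. The ratio of the highest to the lowest library was larger in WT ID8 than in Tim4KO ID8 for all 10 genes, as it was for 79.6% of tested genes. WT ID8 3 was the lowest of its group for 9 of the 10, Nfkb1 being the exception, and for 47.9% of tested genes. Without WT ID8 3, 6 of the 10 genes were called in WT, Nfkb2 being added, against 29.4% of 17374 tested genes, and 3 in Tim4KO, against 20.7%. The WT changes were then 3.11 for Il6 (SE 0.28), 2.52 for Tnf (SE 0.48), 0.998 for Nfkbia (SE 0.18), 0.90 for Icam1 (SE 0.18) and -0.54 for Nfkbiz (SE 0.20) on the log2 scale.

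Among challenged cells, the cytokine genes were lower in Tim4KO than in WT in every library, but no gene of the 10 passed the test with all libraries. Il6 lay at 8.38 to 11.5 CPM in Tim4KO ID8 and 17.6 to 34.1 CPM in WT ID8, and Tnf at 1.38 to 2.02 CPM against 2.19 to 5.76 CPM. The log2 difference was -1.47 for Il6 (SE 0.32, edgeR adjusted p = 0.120) and -1.28 for Tnf (SE 0.48, edgeR adjusted p = 0.323). These were the 2 genes of the 10 with an unadjusted p under 0.05 in edgeR, at 0.000427 and 0.0178, against 1935 of all 15943 tested genes. Il6 and Tnf were also the 2 whose groups did not overlap, against 15.6% of tested genes without overlap and 8.56% without overlap and lower. Called were 0 of the 10, against 0.0565% of tested genes. DESeq2, which tests the same counts with a Wald test, called 1 of the 10, Il6 (log2 difference -1.49, DESeq2 adjusted p = 0.00126). The share of all tested genes that DESeq2 called is not given here, and the edgeR share does not stand in for it.

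The other 8 genes showed smaller differences in challenged cells. Nfkbiz differed by 0.02 on the log2 scale, with a mean of 27.1 ± 6.38 CPM in WT ID8, close to the 27.3 ± 3.66 CPM of Tim4KO ID8 (SD, n = 3 each). The remaining 7 lay between -0.21 for Nfkb2 and -0.56 for Tnfaip3, with edgeR adjusted p of 0.426 to 0.779. The median over the 10 was -0.35, beside 0.01 over all tested genes, and 9 of the 10 were negative. For 8 of the 10, all but Nfkb1 and Nfkbiz, every Tim4KO ID8 library lay below both WT ID8 1 and WT ID8 2, as was the case for 21.8% of tested genes.

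In the main edgeR fit, the calls of Il6 and Tnf between genotypes depended on WT ID8 3, while both were lower in Tim4KO ID8 with or without it. Without that library, Il6 had a log2 difference of -1.71 with an SE of 0.26 (edgeR adjusted p = 0.00066), and Tnf had a value of -1.61 with an SE of 0.45 (edgeR adjusted p = 0.0317). These 2 of the 10 were then called, against 5.74% of 17374 tested genes, a share that itself rose from 0.0565% with all libraries. All 10 genes were then negative, with a median of -0.58 beside 0.01 over all tested genes. WT ID8 3 was the lowest of its group for 9 of the 10, so leaving it out had to lower most of these values. Icam1 (-0.58, edgeR adjusted p = 0.0532), Relb (-0.73, adjusted p = 0.0582) and Bcl3 (-0.59, adjusted p = 0.0642) stayed short of the threshold. The high cell cycle sum and the low background of WT ID8 3 were given above, and their part in its low levels was not tested.

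**Figure D3:**
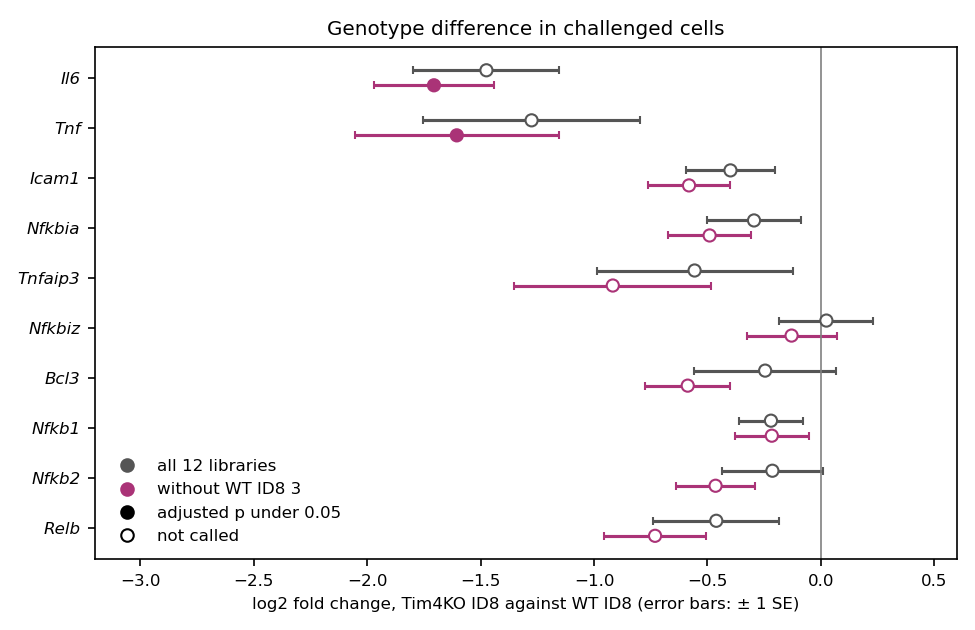
Log2 difference between Tim4KO ID8 and WT ID8 for each of the 10 genes, with all 12 libraries (grey) and without WT ID8 3 (purple), with bars of 1 SE from edgeR. Filled points have an adjusted p under 0.05: only Il6 (-1.71) and Tnf (-1.61) without WT ID8 3 are filled, and Nfkbiz is the only gene right of 0 with all libraries (0.02).

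The direct test of whether the challenge response differed between genotypes, the interaction, called 0 of the 10 genes and 0% of all tested genes. All 10 values were negative, that is, the change in Tim4KO lay below the change in WT, with a median of -0.45 beside 0.01 over all tested genes. Tnf had the lowest value, -1.42 on the log2 scale (SE 0.72, edgeR adjusted p = 0.672), and Nfkbiz the highest, -0.14 (SE 0.29, edgeR adjusted p = 0.907). Il6 had -0.86 (SE 0.49, edgeR adjusted p = 0.698). None of the 10 had an unadjusted p under 0.05, against 1186 of all 15943 tested genes, and DESeq2 called 0. Without WT ID8 3, 0 of the 10 were called and 2.12% of tested genes were. In that fit 7 of the 10 had an unadjusted p under 0.05, against 14.6% of tested genes, and the median of the 10 was -0.68 beside 0.02. Leaving out the lowest WT ID8 library of 9 of the 10 had to lower most of these values. The rise of Tnf, Icam1 and Nfkbia in WT and its absence from the calls in Tim4KO therefore does not show a difference between genotypes. This contrast, both challenge contrasts and both genotype contrasts share libraries, so their directions are not independent.

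The rest of the pathway was read from lists written for this purpose. Their counts are to be read beside the shares of all tested genes given above, 19.5% risen and 12.3% fallen in WT and 11.5% risen and 5.06% fallen in Tim4KO. Of 20 receptors and adaptors, 2 rose and 1 fell in WT, and 0 rose and 2 fell in Tim4KO. Il1r1, the signalling receptor for IL-1, fell in both, with a log2 change of -3.79 in WT (SE 0.35, edgeR adjusted p = 4.07e-06) and -2.30 in Tim4KO (SE 0.31, edgeR adjusted p = 0.000242). Its level went from 5.02 ± 0.254 to 0.351 ± 0.0119 CPM in WT (SD, n = 3 each), close to the floor of 0.345 CPM in WT ID8 1. Markers of mast cells, fibroblasts and B cells were also lower in challenged WT libraries, as was the background measure, while the neutrophil sum given above was higher. The 6 mast cell markers summed to 16.1 to 39.0 CPM in WT naive and 2.30 to 6.10 CPM in WT ID8, and to 13.3 to 33.8 CPM in Tim4KO naive and 6.22 to 9.53 CPM in Tim4KO ID8. The 5 fibroblast markers summed to 3.94 to 14.1 CPM in WT naive and 0.0913 to 2.65 CPM in WT ID8, and the 6 B cell markers to 14.2 to 21.8 CPM and 3.44 to 8.52 CPM. In Tim4KO naive and Tim4KO ID8 the fibroblast sums overlapped, at 3.06 to 7.55 CPM and 0.615 to 5.35 CPM. The B cell sums there were 8.34 to 13.3 CPM and 5.76 to 6.46 CPM. The part of these sums in the fall of Il1r1 was not tested. Of 11 kinases, 3 rose and 1 fell in WT, and 1 fell in Tim4KO. Ikbke rose by 0.87 in WT (SE 0.24, edgeR adjusted p = 0.0141), while Map3k14, the kinase that starts the noncanonical pathway, had -0.91 (SE 0.20, edgeR adjusted p = 0.00309). Of 5 further subunits and IkB proteins, Nfkbib alone passed, with 0.55 in WT (SE 0.18, edgeR adjusted p = 0.0301). Of 18 further brakes, 2 rose and 1 fell in WT, and 2 fell in Tim4KO. Tnip3, a partner of the Tnfaip3 enzyme, rose by 1.76 in WT (SE 0.41, edgeR adjusted p = 0.00541), and Tnfaip8l2, which restrains immune receptor signalling, fell in both genotypes (-0.99 and -0.64, edgeR adjusted p = 0.00147 and 0.0302). With all libraries, none of the genes in these lists was called between genotypes in naive or in challenged cells, nor in the interaction. Without WT ID8 3, Ikbke (-0.84, edgeR adjusted p = 0.00766), Tnip3 (-1.22, edgeR adjusted p = 0.0279) and the brake Irak3 (-0.66, edgeR adjusted p = 0.0402) were lower and Map3k14 (0.79, edgeR adjusted p = 0.0390) was higher in Tim4KO ID8 than in WT ID8. These were 1 lower and 1 higher of 11 kinases and 2 lower of 18 brakes, against 3.49% of tested genes lower and 2.24% higher. The share of all tested genes called there was 0.0565% with all libraries and 5.74% without WT ID8 3. In the interaction of the fit without WT ID8 3 the kinase genes Chuk (-0.75, edgeR adjusted p = 0.0408) and Ikbke (-0.94, edgeR adjusted p = 0.0492) were called. They were 2 of the 11 kinases, against 2.12% of tested genes called. After challenge, that fit called 19.2% of tested genes higher and 10.2% lower in WT, and 14% higher and 6.72% lower in Tim4KO. Of the receptors and adaptors, 5 were higher and 1 lower in WT, and 0 higher and 4 lower in Tim4KO. Of the kinases, 3 were higher and 1 lower in WT, and 1 higher and 1 lower in Tim4KO. Of the further brakes, 3 were higher and 2 lower in WT, and 1 higher and 3 lower in Tim4KO. Of the further subunits and IkB proteins, 2 were higher in WT and 1 in Tim4KO, and 0 were lower in either.

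The further targets had a higher median change with challenge than any of those lists in both genotypes. Traf1 and Birc3 stood both in this list and among the receptors and adaptors, so they were counted in both. Of 32 listed, 27 passed the filter, and Il12b, Il23a, Il10, Csf2 and Csf3 did not, with at most 13 counts in any library. In WT, 15 of the 27 rose and 0 fell, with a median of 1.38 beside -0.04 over all tested genes. In Tim4KO, 6 rose and 1, the caspase-8 regulator Cflar, fell (-0.67, edgeR adjusted p = 0.0194), with a median of 0.62 beside -0.05. Without WT ID8 3 these counts were 15 and 0 in WT and 8 and 2 in Tim4KO. Genes that pass the filter through a high level in 1 group had to differ, so these counts describe the genes that passed and not the list. Lcn2, which encodes an iron-scavenging protein, went from 2.30 to 84.0 CPM in WT and from 1.74 to 25.6 CPM in Tim4KO (means of 3). Its log2 change was 5.15 in WT (SE 0.31, edgeR adjusted p = 3.57e-07) and 3.88 in Tim4KO (SE 0.32, edgeR adjusted p = 6.89e-06). The chemokine gene Ccl4 rose by 3.16 in WT (SE 0.39, edgeR adjusted p = 5.38e-05) and by 2.08 in Tim4KO (SE 0.41, edgeR adjusted p = 0.00318). Ccl5, another chemokine gene, rose by 3.51 in WT (SE 0.54, edgeR adjusted p = 0.000928) and by 3.13 in Tim4KO (SE 0.53, edgeR adjusted p = 0.00319). Cd44, a receptor for hyaluronan, rose by 1.47 in WT (SE 0.20, edgeR adjusted p = 0.000147) and by 0.72 in Tim4KO (SE 0.20, edgeR adjusted p = 0.0241).

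Between genotypes in challenged cells, Lcn2 was the 1 further target called, at -1.71 on the log2 scale (SE 0.25, edgeR adjusted p = 0.0203). The neutrophil marker sum ran from 9.95 to 28.4 CPM in WT ID8 libraries and from 16.6 to 23.8 CPM in Tim4KO ID8 libraries, with Ly6g at or under 4 counts, and its part in the level of Lcn2 was not tested. The median over the 27 was -0.45, beside 0.01 over all tested genes. In the interaction 0 of the 27 were called. Both counts changed when WT ID8 3 was left out, and the shares of all tested genes called rose as well, as given above. In that fit 8 of the 27 were lower in Tim4KO ID8 and 0 higher, against 3.49% of tested genes lower and 2.24% higher, with a median of -0.82 beside 0.01 over all tested genes. Among them were Sod2, which encodes the mitochondrial superoxide dismutase (-1.25, SE 0.17, edgeR adjusted p = 4.79e-05), Cd44 (-1.04, SE 0.16, edgeR adjusted p = 0.000336), Ccl4 (-1.72, SE 0.33, edgeR adjusted p = 0.00267) and Lcn2 (-1.69, SE 0.31, edgeR adjusted p = 0.0126). In the interaction of that fit 3 of the 27 were called, against 2.12% of tested genes, each with a lower change in Tim4KO than in WT: Sod2 (-1.25, SE 0.22, edgeR adjusted p = 0.00447), Cd44 (-0.98, SE 0.22, edgeR adjusted p = 0.0175) and the survival gene Bcl2l1 (-1.03, SE 0.22, edgeR adjusted p = 0.0127).

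**Figure D4:**
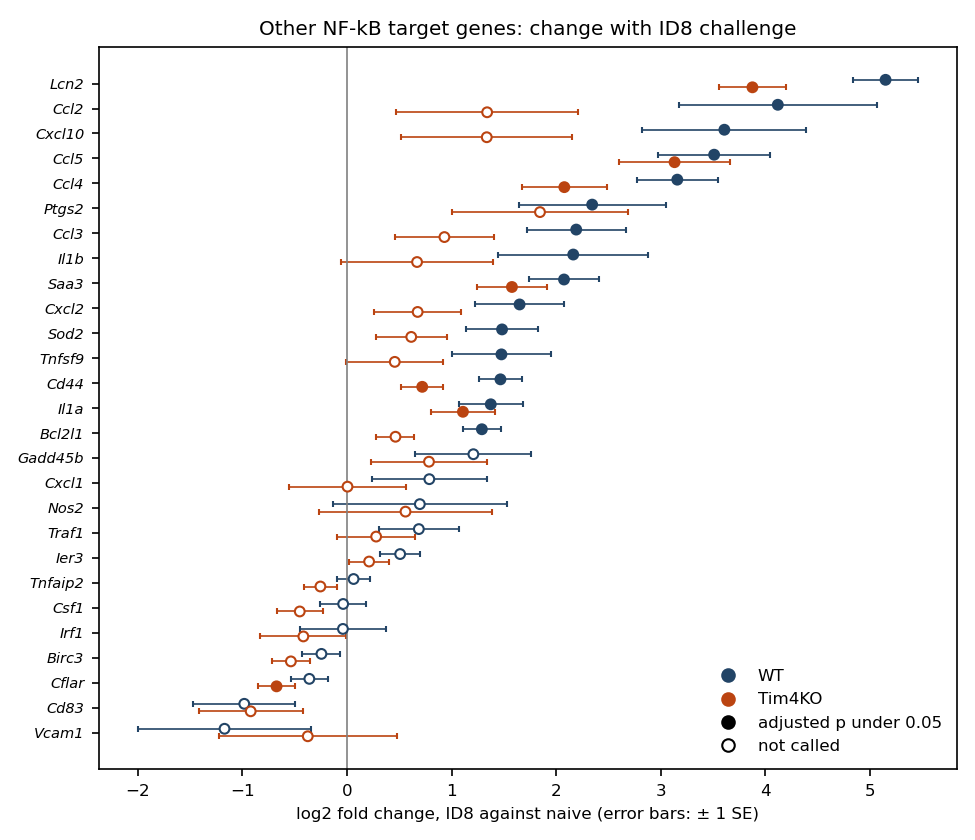
Log2 fold change with ID8 challenge for the 27 further NF-kB target genes that passed the filter, in WT (dark blue) and Tim4KO (orange), with bars of 1 SE from edgeR, ordered by the change in WT. Filled points have an adjusted p under 0.05: 15 in WT, all to the right of 0, and 7 in Tim4KO, of which Cflar is left of 0.

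Likeness over the 12 libraries was measured as Pearson's r of log2 CPM, as a description without a test, since the libraries share the groups and the challenge. Among the 10, Icam1 and Nfkbia were most alike (r = 0.95, n = 12), followed by Il6 with Tnf and Il6 with Nfkbia (r = 0.84 each). Tnfaip3 went with Relb (r = 0.76) and Bcl3 (r = 0.73). Il6 and Nfkbiz ran in opposite directions (r = -0.75). Among tested genes whose mean count reached 50, Il6 was most like Cct2 (r = 0.98) and Pspc1 (r = 0.97), Tnf most like the chemokine gene Ccl2 (r = 0.96) and Coq4 (r = 0.96), and Nfkbia most like Trim30b (r = 0.96) and Icam1. Icam1 in turn was most like Nfkbia and Trim30b (r = 0.95 each). Nfkbiz was most like Maf (r = 0.96) and Clk1 (r = 0.95), and Tnfaip3 most like the receptor gene Tlr2 (r = 0.94) and the inhibitor gene Nfkbie (r = 0.90). Nfkb1 was most like Pou2f1 (r = 0.91) and Tab2 (r = 0.88), Nfkb2 most like Ets2 (r = 0.90) and Cxcl1 (r = 0.89), Relb most like Rhoq and Fam126b (r = 0.91 each), and Bcl3 most like Luc7l3 and Map2k7 (r = 0.86 each).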

How the data were processed

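Per the labels' protocols, RNA of sorted macrophages came from the RNeasy micro kit, and the SMART-Seq mRNA LP kit turned it into PCR-amplified libraries. The submitters' processing notes name FastQC, STAR 2.5 and the builds mm10 and GRCm39. The counting program, annotation and strand handling are not given in the sources used here. The authors deposited raw counts per Ensembl gene, which the values bear out as whole numbers whose totals differ between the 12 libraries. Symbols came from GENCODE vM21 (52029 of 57010 identifiers), as did exonic lengths. All columns were matched by name, and 0 were left unmatched.

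Counts were tested with edgeR 4.0.16 (quasi-likelihood, robust, 8 residual degrees of freedom) in R 4.3.3. One model with a mean per group covered all 12 libraries, with TMM scaling and filterByExpr at its default minimum count of 10, which kept 15943 genes. Tests were two-sided, p-values were adjusted by Benjamini-Hochberg over all tested genes, and the threshold was 0.05. Each SE is the size of the log2 change over the root of its F statistic. The comparisons were ID8 against naive within each genotype, Tim4KO against WT within each condition, and their interaction. Scripts were tested on simulated data.

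All 10 genes are named in every comparison. Of each further list, up to 3 called genes with the smallest p could be named. Genes of the lists named in the fit without WT ID8 3, and the second-genotype values of Ccl5 and Cd44, were chosen after their values were seen. Cflar was named because it was the 1 target that fell, after its values were seen. The 2 genes most like each of the 10 were taken by r. The genes and lists were chosen with earlier results of these data known. Marker lists were summed and not tested. Alternatives were DESeq2 1.42.0, its size factors, upper-quartile scaling, no filter, limma 3.58.1 voom, only the 2 groups compared, a replicate block, the background measure as a covariate, and leaving out each library.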

Additional observations from a re-analysis of the deposited data

How the results depend on the processing

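The counts of called genes held within 1.5 times under most settings. In WT challenge the count of 5 became 3 with only the 2 groups compared, and 3 to 6 with a library left out. In Tim4KO challenge the count of 3 became 5 with only the 2 groups compared (Relb and Tnfaip3 added), and 1 to 3 with a library left out. Between genotypes in ID8 the count of 0 became 1 (Il6) without a filter, with DESeq2 and with the background covariate, and 0 to 2 with a library left out. The naive genotype count and the interaction stayed at 0 in every fit run. The cause of these shifts was not tested. Apart from the fit without WT ID8 3, the share of all tested genes called under each setting is not given here. These counts therefore cannot be set against such a share. Small changes turned sign. In WT challenge, without a filter and with the background covariate, Relb had 0.0082 and 0.23, Bcl3 0.0042 and 0.42, and Tnfaip3 0.0156 and 0.39. In Tim4KO challenge Nfkb2 had -0.0182 with DESeq2 size factors, -0.0889 with upper-quartile scaling, -0.0176 with DESeq2 and -0.0031 with only the 2 groups. In naive cells upper-quartile scaling gave Nfkb2 -0.0143 and Relb -0.0058. In ID8, Nfkbiz had -0.0149 without a filter and -0.0952 with the background covariate.

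With a library left out, WT challenge values ran from -0.22 to 0.26 for Relb, -0.30 to 0.28 for Bcl3 and -0.73 to 0.42 for Tnfaip3. The naive genotype difference ran from -0.38 to 0.51 for Tnf, -0.042 to 0.31 for Icam1, -0.0427 to 0.17 for Nfkb1, -0.12 to 0.25 for Nfkb2, -0.10 to 0.36 for Relb, -0.0441 to 0.33 for Nfkbia, -0.11 to 0.30 for Bcl3 and -0.0287 to 0.69 for Tnfaip3. In ID8 it ran from -0.13 to 0.16 for Nfkbiz and -0.92 to 0.10 for Tnfaip3. Tnf had the fewest counts of the 10, 2 to 67 in a library.

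The replicate block called 5 genes in WT challenge, 2 in Tim4KO challenge (Nfkb1 at an edgeR adjusted p of 0.0517) and 0 elsewhere. Libraries with the same number did not deviate together: the median correlation of their deviations was -0.01 over 18 pairs (range -0.50 to 0.42), beside 0.003 over 36 pairs with different numbers, so the numbers were not taken as pairs.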
